A study of Mus musculus with 12 samples.

Results

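The genes described here drive entry into S phase: cyclins E1, E2, A1 and A2 (*Ccne1*, *Ccne2*, *Ccna1*, *Ccna2*), their kinase *Cdk2*, the transcription factor *E2f1* and the phosphatase *Cdc25a*. They were taken by name and make up 7 of the 770 genes of the nCounter® Mouse PanCancer Pathways Panel. *Ccne2*, *Ccna2*, *Cdk2*, *E2f1* and *Cdc25a* were above background in all 12 samples. *Ccne1* was above it in 6 samples and *Ccna1* in 0.

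The samples were 2 mouse hepatocellular carcinoma cell lines, each transfected with *Dusp4* siRNA or with a negative control pool (SCR), in 3 biological replicates for each of 4 groups. *Dusp4* encodes a phosphatase that inactivates ERK. AKT Cre/NRAS, which the sample labels write AKT/NRAS Cre, was made from AKT/NRAS with Cre recombinase, which removed the activated, floxed AKT transgene. Both lines carry activated NRAS. AKT/NRAS keeps AKT and comes from a tumour that grew after both oncogenes had been injected into a mouse. The groups were AKT Cre/NRAS siRNA, AKT Cre/NRAS SCR, AKT/NRAS siRNA and AKT/NRAS SCR. Each genotype is thus 1 line, so a difference between the lines cannot be told apart from other differences between these lines.

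Cyclins are regulatory subunits that switch on cyclin-dependent kinases. In late G1, phosphorylation of the RB protein frees E2F factors, which transcribe the genes of the E-type and A-type cyclins, of *Cdc25a* and of *E2f1* itself. Cyclin E with CDK2 fires replication origins at the start of S phase, cyclin A with CDK2 carries S phase through, and CDC25A removes the inhibitory phosphates from CDK2. Amplified or overexpressed cyclin E is well known in liver cancer.

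Values are normalized counts, that is barcode counts scaled to the positive controls by the authors and then to 15 reference genes. The lowest readable level was 27.1 normalized counts, a common floor to which every lower value was raised. Log2 fold changes are given with their standard error and the adjusted p of limma, and a gene was called where that p was under 0.05. The counts above the floor summed to 641790 to 1081646 per sample, and 252 to 293 of the 770 genes stood at the deposited floor. *Dusp4* read 4126, 4174 and 3769 in AKT Cre/NRAS siRNA, against 6343, 5843 and 4483 in AKT Cre/NRAS SCR (log2 -0.45 ± 0.12, adjusted p = 0.0178). In AKT/NRAS siRNA it read 350.2, 389 and 371, against 1273, 1226 and 1186 in AKT/NRAS SCR (log2 -1.73 ± 0.05, adjusted p = 1.13e-06). The *Dusp4* call in AKT Cre/NRAS held under 5 of 8 scalings (-0.81 to 0.00) and was lost without AKT Cre/NRAS siRNA replicate 1 or 3 or SCR replicate 2 (adjusted p 0.0596, 0.0674 and 0.0677). Of the marker genes on the panel, the hepatocyte factor *Cebpa* was above the floor in every group, and the leukocyte genes *Csf1r*, *Il2rb* and *Il7r* stood at the floor in every sample. Of 2 endothelial genes *Kdr* was at the floor and *Flt1* was not, and of 5 stellate or fibroblast genes only *Pdgfra* and *Col1a1* were above it.

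**Figure D1:**
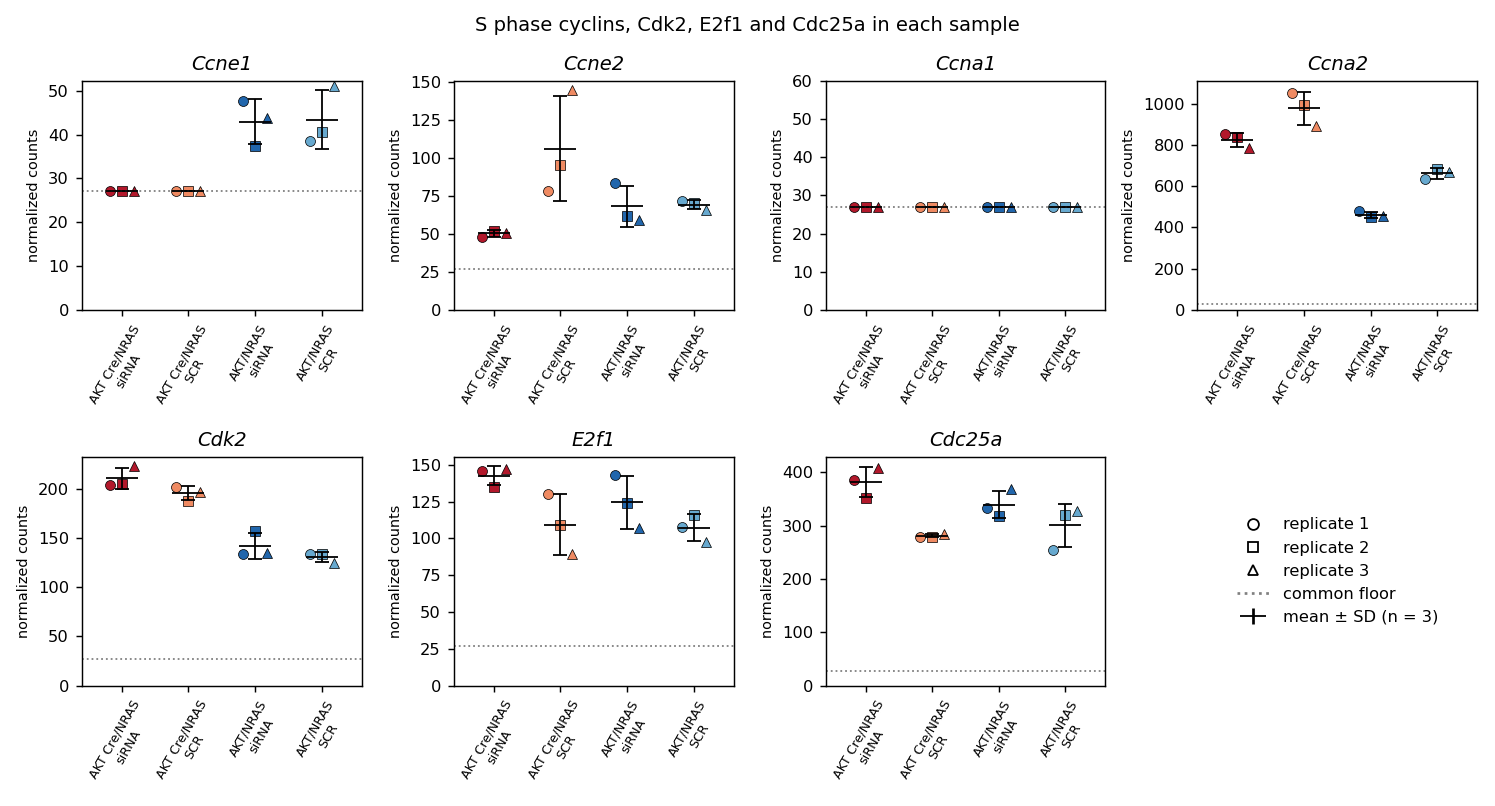
Normalized counts of the 7 genes (vertical axes, linear, from 0) in each sample of the 4 groups (horizontal axes). Points are samples, with a shape for each replicate number, bars are means ± SD (n = 3), and the dotted line is the common floor of 27.1. *Ccne1* lay on the floor in both AKT Cre/NRAS groups, *Ccna1* lay on it in all groups, and the *Ccne2* values of AKT Cre/NRAS SCR spread between 78.2 and 145.

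In AKT Cre/NRAS, *Ccne2* was lower and *Cdc25a* higher after silencing of *Dusp4*, by -1.02 and 0.44 on the log2 scale. Of the 5 members that could be fitted, 1 was called higher and 1 lower, where 40.6% of the 503 genes fitted were called higher and 5.37% lower. The median log2 fold change was 0.11 over the 5 members and 0.23 over all 503 genes. In the fit with the replicate number as a block, a pairing read from these same data, 4 members were called. The shares of all genes given above are those of the fit without the block, so this count has no share beside it. *Ccna2* (adjusted p = 0.0315) was added on the lower side and *E2f1* (adjusted p = 0.0233) on the higher side. In AKT/NRAS *Ccna2* was called lower and the other 5 fitted members were not called, where 5.44% of 496 genes were called higher and 11.9% lower. The median was 0.05 over the 6 members fitted and -0.03 over all genes. These are bulk samples, so fewer cells in a phase of the cycle and less RNA per cell cannot be told apart.

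**Figure D2:**
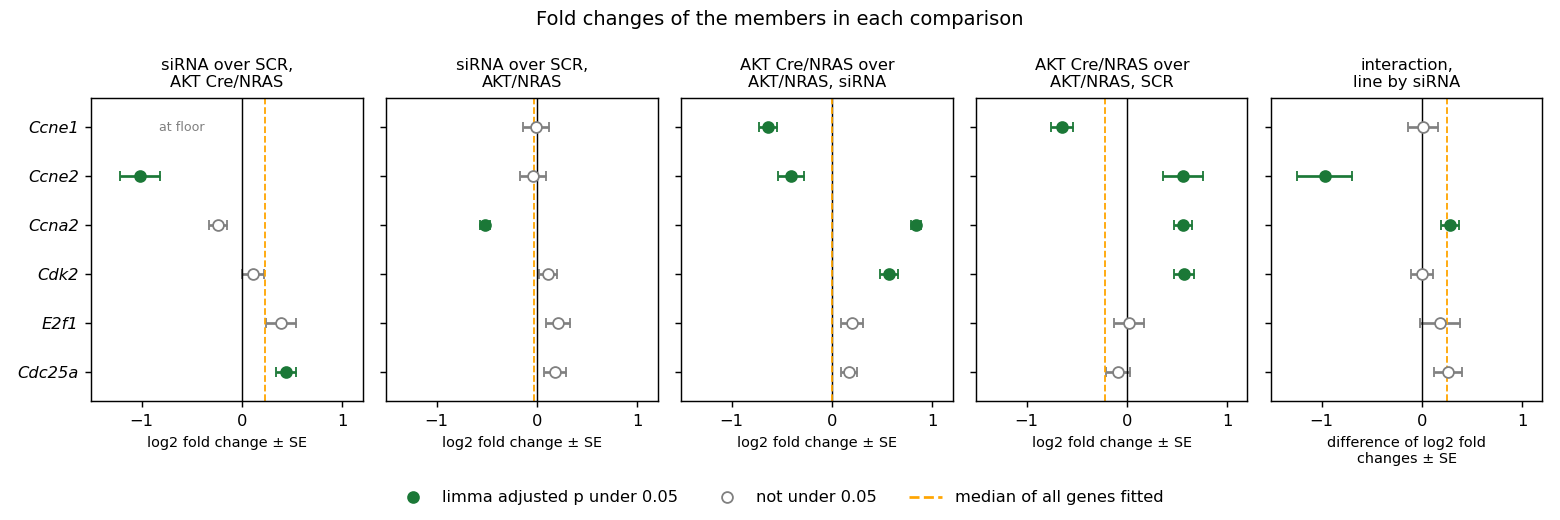
Log2 fold changes ± SE (horizontal axes) of the 6 members with readings, in the 2 siRNA comparisons, the 2 comparisons of the lines and the interaction (n = 3 per group). Filled points passed the limma threshold, open points did not, and the dashed line is the median of all genes fitted. *Ccne2* stood at -1.02 in AKT Cre/NRAS and at -0.04 in AKT/NRAS. In the comparisons of the lines *Ccne1* could only come out lower, since its AKT Cre/NRAS samples were at the floor.

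*Ccne2* (chr4:11190433-11204779, GRCm38.p6), which encodes cyclin E2, read 48.0, 52.3 and 50.9 normalized counts in AKT Cre/NRAS siRNA, against 78.2, 95.8 and 145 in AKT Cre/NRAS SCR. Every silenced sample lay below every SCR sample, and the SCR samples spread more widely than the silenced ones. The means were 50.4 ± 2.2 and 106 ± 34.6 (SD, n = 3 each), and the log2 fold change was -1.02 ± 0.20 (adjusted p = 0.0046), a level 0.495-fold that of SCR. The call held with each of the 6 samples left out and was lost with no filter on low genes (adjusted p = 0.0616, the highest of the alternatives, which ran from 6.19e-05). Behind these values stood few barcodes, with 43, 53 and 59 counts in AKT Cre/NRAS siRNA and 83, 107 and 130 in AKT Cre/NRAS SCR before scaling. The 95% Poisson interval of the highest silenced count, 44.9 to 76.1, overlapped that of the lowest SCR count, 66.1 to 103. These intervals cover counting error only. In AKT/NRAS siRNA *Ccne2* read 83.8, 61.6 and 59.2, against 71.5, 70.7 and 66.1 in AKT/NRAS SCR. There the groups overlapped, and the log2 fold change was -0.04 ± 0.13 (adjusted p = 0.901, 95% interval -0.35 to 0.27). The interaction, that is the log2 fold change in AKT Cre/NRAS minus that in AKT/NRAS, was -0.97 ± 0.27 (adjusted p = 0.0155). *Dusp4* itself had an interaction of 1.28 ± 0.15 (adjusted p = 0.000728), so the silencing was weaker in AKT Cre/NRAS.

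By group mean, *Ccne2* was highest in AKT Cre/NRAS SCR (106), followed by AKT/NRAS SCR (69.4), AKT/NRAS siRNA (68.2) and AKT Cre/NRAS siRNA (50.4). Of the neighbours in this order, the 2 AKT/NRAS groups did not differ beyond their spread. AKT Cre/NRAS SCR overlapped AKT/NRAS siRNA, and that pair was not tested. AKT Cre/NRAS was thus above AKT/NRAS under SCR (log2 0.56 ± 0.20, adjusted p = 0.0328) and below it under *Dusp4* siRNA (log2 -0.41 ± 0.13, adjusted p = 0.0248). The first of these calls held under 5 of 8 scalings and was lost when any of AKT Cre/NRAS SCR replicate 2 or AKT/NRAS SCR replicates 1, 2 and 3 was left out (adjusted p 0.0553, 0.0817, 0.0693 and 0.109). The second also held under 5 of 8 scalings and was lost without AKT Cre/NRAS siRNA replicate 1 (0.0741) or replicate 3 (0.0599). The adjusted p ran from 4.94e-05 to 0.761 and from 0.00284 to 0.17 over all alternatives of these calls.

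The AKT Cre/NRAS SCR samples also differed among themselves in the reference genes. The log2 ratio of *Rpl19*, a ribosomal protein gene, to *Polr2a*, the large subunit of RNA polymerase II, was 5.48, 6.36 and 6.88 in AKT Cre/NRAS SCR replicates 1, 2 and 3. It was 4.72 to 5.03 in AKT Cre/NRAS siRNA, 3.86 to 3.92 in AKT/NRAS siRNA and 3.81 to 3.87 in AKT/NRAS SCR. *Ccne2* was highest in the SCR sample with the highest ratio and lowest in the one with the lowest. *E2f1* ran the other way in the same 3 samples. *Rpl19* was one of the 15 reference genes, and leaving it out gave *Ccna2* an adjusted p of 0.02 and 3 called members in AKT Cre/NRAS. Of the 504 genes in that fit, 187 were called higher and 35 lower. What part these sample differences have in the *Ccne2* result was not tested.

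**Figure D3:**
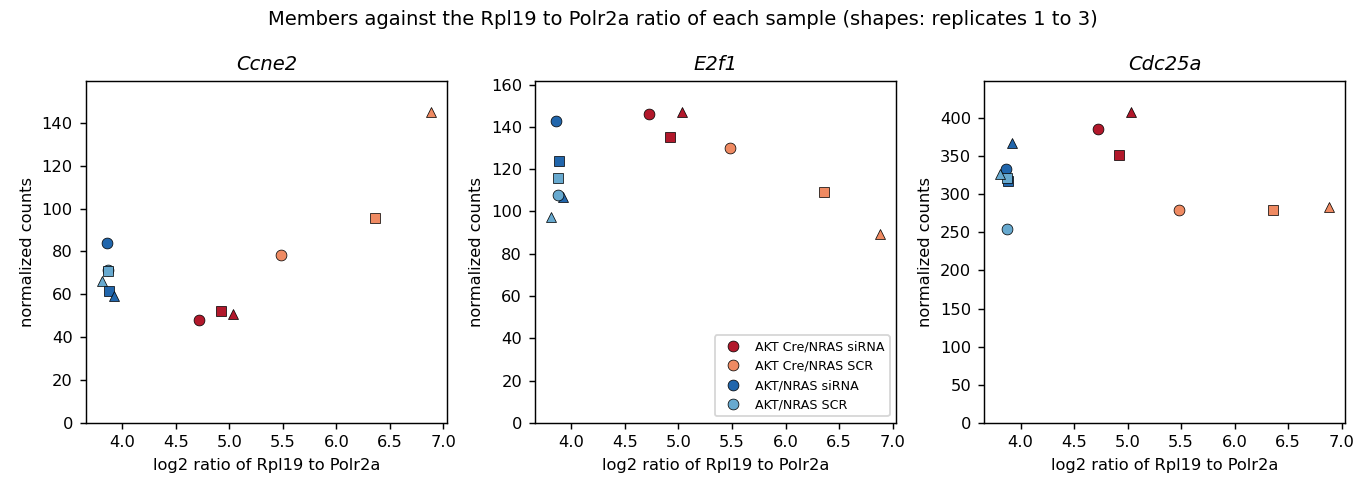
Normalized counts of *Ccne2*, *E2f1* and *Cdc25a* (vertical axes) against the log2 ratio of *Rpl19* to *Polr2a* (horizontal axes) in each of the 12 samples, coloured by group, with a shape for each replicate number. The 3 AKT Cre/NRAS SCR samples reach from 5.48 to 6.88 on the horizontal axis, and over them *Ccne2* goes up, *E2f1* goes down and *Cdc25a* stays between 279 and 284.

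A ratio of 2 genes within a sample does not move with any factor applied to the whole sample, so the ratios of *Ccne2* to *Cdc25a* and to *Rpl19* were also taken. The log2 ratio of *Ccne2* to *Cdc25a* was -3.01, -2.75 and -3.00 in AKT Cre/NRAS siRNA, against -1.84, -1.54 and -0.97 in AKT Cre/NRAS SCR. The groups did not overlap, and their means differed by -1.47, a difference that includes the higher *Cdc25a* of the silenced samples. The ratio sets the member called lower against the one called higher here and was added after seeing the data. The gap is thus no separate check of *Ccne2*. In AKT/NRAS the same ratio differed by -0.22 between siRNA and SCR (exact permutation p = 0.4, two-sided), with overlapping groups. Against *Rpl19*, *Ccne2* stood at -9.67, -9.63 and -9.63 in AKT Cre/NRAS siRNA and at -9.19, -9.25 and -9.22 in AKT Cre/NRAS SCR, a difference of -0.42. *Rpl19* itself was called lower after silencing in this line (log2 -0.61 ± 0.21, adjusted p = 0.0338). The ratio thus holds only the part of the *Ccne2* change beyond that of *Rpl19*. The difference in the ratio to *Rpl19* was smaller than the one in normalized counts, and both groups were narrow (SD 0.02 in siRNA and 0.04 in SCR). Counting error alone gives a *Ccne2* count a relative SD of 8.77% to 15.2%, which is wider than these log2 SDs. The narrow groups are thus no measure of precision. In AKT/NRAS the ratio to *Rpl19* differed by -0.02 (exact permutation p = 1). With 3 samples against 3 the smallest two-sided p of this test is 0.1, which both AKT Cre/NRAS ratios reached (0.171 after Benjamini-Hochberg adjustment over the 12 ratio comparisons).

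**Figure D4:**
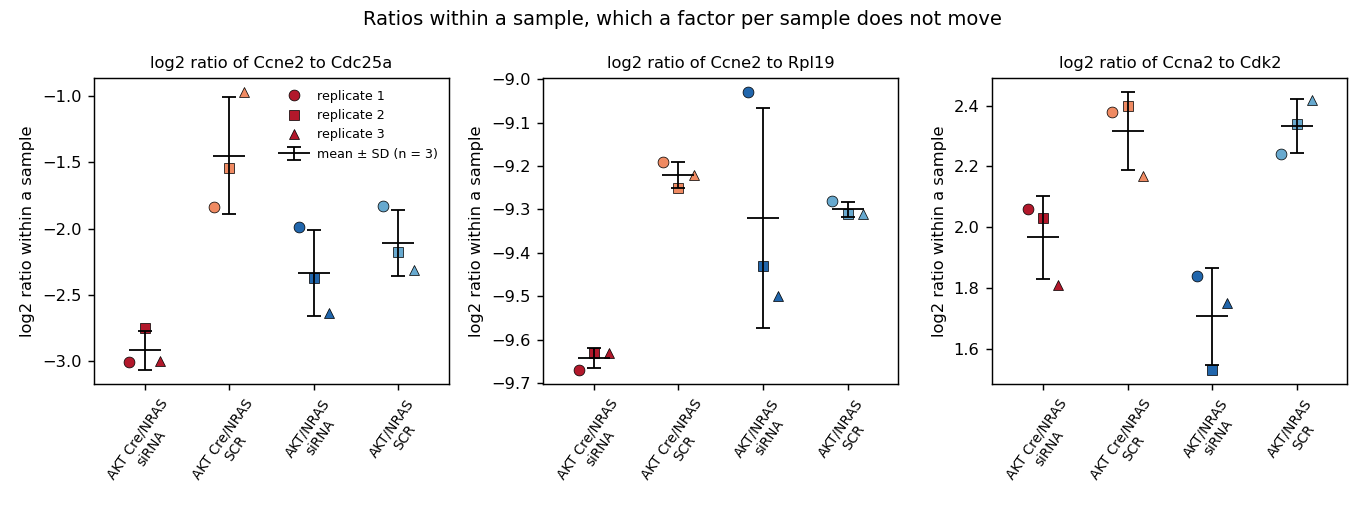
Log2 ratios within each sample of *Ccne2* to *Cdc25a*, *Ccne2* to *Rpl19* and *Ccna2* to *Cdk2* (vertical axes) in the 4 groups. Points are samples with a shape for each replicate number, and bars are means ± SD (n = 3). Both *Ccne2* ratios of AKT Cre/NRAS siRNA lie below all samples of AKT Cre/NRAS SCR, and the *Ccna2* ratio lies lower under siRNA in both lines.

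*Ccne1* (chr7:38097984-38107490), the gene of cyclin E1, was read in one line only. It stood at the floor in all 6 AKT Cre/NRAS samples, and read 47.7, 37.4 and 43.8 normalized counts in AKT/NRAS siRNA and 38.6, 40.6 and 51.0 in AKT/NRAS SCR. In the AKT/NRAS samples 35 to 51 barcodes were counted, where the negative controls of the 12 samples held 3 to 20. Under *Dusp4* siRNA the AKT Cre/NRAS level was at least 1.58-fold lower than the AKT/NRAS level, and under SCR at least 1.59-fold lower. Both are bounds, since the AKT Cre/NRAS samples were set to the floor. *Ccne1* entered the fits of the lines through its AKT/NRAS samples alone, so its calls there are given as a description. Silencing in AKT/NRAS gave a log2 fold change of -0.01 ± 0.13 (adjusted p = 0.971, 95% interval -0.32 to 0.29), and in AKT Cre/NRAS no change of *Ccne1* could be read. *Ccna1* (chr3:55045469-55057634), the cyclin A gene known mainly from the germ line, was at the floor in all 12 samples, so it entered no fit.

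*Ccna2* (chr3:36564865-36573038), the gene of the cyclin A of dividing somatic cells, was lower after silencing in AKT/NRAS. It read 478, 452 and 453 in AKT/NRAS siRNA, against 633, 683 and 668 in AKT/NRAS SCR. No silenced sample came near an SCR sample, and each group was narrow. The log2 fold change was -0.52 ± 0.05 (adjusted p = 0.00161), and by p it stood at rank 2 of 496 genes. In AKT Cre/NRAS siRNA *Ccna2* read 851, 837 and 786, against 1049, 992 and 891 in AKT Cre/NRAS SCR. These groups did not overlap either, but the log2 fold change of -0.24 ± 0.09 missed the threshold without the replicate block (adjusted p = 0.0524). It was called without AKT Cre/NRAS SCR replicate 3 (adjusted p = 0.00442). The interaction of *Ccna2* was 0.28 ± 0.09 (adjusted p = 0.033), although its sign turned under 3 of 7 scalings, and it lay close to the median interaction of all genes, 0.25. Set against the median of all genes, *Ccna2* was lower by a similar amount in both lines, at -0.47 in AKT Cre/NRAS and -0.49 in AKT/NRAS. On that scale its interaction was 0.03. It ran from -0.05 to 0.06 over 7 scalings, a narrow range because the median takes up most of each change of scaling.

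Between the lines, *Ccna2* was higher in AKT Cre/NRAS by 0.84 ± 0.05 on the log2 scale under *Dusp4* siRNA (adjusted p = 3.04e-06) and by 0.56 ± 0.09 under SCR (adjusted p = 0.000342). The group means ran in the order AKT Cre/NRAS SCR (977), AKT Cre/NRAS siRNA (825), AKT/NRAS SCR (661) and AKT/NRAS siRNA (461), of which the 2 AKT Cre/NRAS groups were not called apart and the middle pair was not compared. The difference under SCR was called under 5 of 8 scalings (0.04 to 1.07) and that under siRNA under all 8. The log2 ratio of *Ccna2* to *Cdk2*, the cyclin to its kinase, was 2.06, 2.03 and 1.81 in AKT Cre/NRAS siRNA, against 2.38, 2.40 and 2.17 in AKT Cre/NRAS SCR. In AKT/NRAS siRNA it was 1.84, 1.53 and 1.75, against 2.24, 2.34 and 2.42 in AKT/NRAS SCR. Within each line the silenced samples lay below the SCR samples, by 0.35 and 0.63 on average (exact permutation p = 0.1 each, the smallest possible). Between the lines the ratio differed by 0.26 under siRNA and -0.01 under SCR, with overlapping groups.

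*Cdk2* (chr10:128697938-128705051), the kinase that both cyclin types activate, differed between the lines and was not called after silencing. It read 204, 205 and 223 in AKT Cre/NRAS siRNA and 202, 188 and 197 in AKT Cre/NRAS SCR, against 134, 157 and 135 in AKT/NRAS siRNA and 134, 134 and 125 in AKT/NRAS SCR. All AKT Cre/NRAS samples lay above all AKT/NRAS samples. The log2 difference of the lines was 0.57 ± 0.09 under siRNA (adjusted p = 0.000612) and 0.57 ± 0.10 under SCR (adjusted p = 0.000602), called under all 8 scalings and under 5 of 8. Silencing gave 0.11 ± 0.11 in AKT Cre/NRAS (adjusted p = 0.447, 95% interval -0.14 to 0.35) and 0.11 ± 0.09 in AKT/NRAS (adjusted p = 0.466, 95% interval -0.09 to 0.31), so a change of up to those sizes could not be told from none. The interaction was 0.00 ± 0.11 (adjusted p = 0.996). Over 7 scalings it ran from -0.418 to 0.482, and it was called when re-centred on the median (-0.41, adjusted p = 0.0296).

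The RefSeq promoter table (GRCm38.p6) held windows for *Cdk2*, *Cdc25a*, *Ccne1*, *Ccna1* and *E2f1*, 5 of the 7 genes. The 250 bases before each start were searched on both strands for the E2F site in the forms TTTCGCGC, TTTGGCGC and TTTCCCGC, for the CHR element TTTGAA and for the CCAAT box CCAAT. An E2F form was found in 2 of the 5 windows, those of *Cdk2* and *Cdc25a*, and in 1.53% of the 32851 windows of the table. A CCAAT box was found in the windows of *Cdk2*, *Cdc25a* and *Ccna1*, and in 33.8% of all windows. The CHR element was in none of the 5 and in 16.0% of all windows. The windows of *E2f1* and *Ccna1* lie inside their gene models. The 2 windows with an E2F form are shown, those of *Cdc25a*, called higher after silencing in AKT Cre/NRAS, and of *Cdk2*, called between the lines. That of *Cdc25a* was searched over 250 bases, of which 61 lie inside the gene model, and is printed for its first 191 bases, up to the end of the E2F form. Positions are counted back from the start in the promoter table, which for *Cdc25a* lies inside the gene model. They are written 5′ to 3′ on the strand of the gene, with the matches in capitals. A match describes the letters and is not a measured binding site.
Cdk2, chr10:128705052-128705301, minus strand: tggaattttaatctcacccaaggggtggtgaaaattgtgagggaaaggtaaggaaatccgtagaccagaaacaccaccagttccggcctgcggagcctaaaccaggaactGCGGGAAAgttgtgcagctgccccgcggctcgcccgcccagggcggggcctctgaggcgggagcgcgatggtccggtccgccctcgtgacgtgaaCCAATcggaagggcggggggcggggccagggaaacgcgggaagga
Cdc25a, chr9:109875329-109875519, plus strand: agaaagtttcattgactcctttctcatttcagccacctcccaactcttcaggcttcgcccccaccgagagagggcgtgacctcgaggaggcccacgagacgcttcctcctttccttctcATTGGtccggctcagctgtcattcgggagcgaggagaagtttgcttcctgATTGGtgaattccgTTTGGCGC
The capitals in *Cdk2* are an E2F form on the other strand, beginning 140 bases before the start, and a CCAAT box at 45 bases. The capitals in *Cdc25a* are 2 CCAAT boxes on the other strand, at 131 and 81 bases, and an E2F form at 67 bases, whose last 2 bases lie inside the gene model. None of the matches overlap.

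*Cdc25a* (chr9:109875518-109893895), the phosphatase gene with both an E2F form and CCAAT boxes in the window above, read 386, 352 and 408 in AKT Cre/NRAS siRNA, against 279.7, 279 and 284 in AKT Cre/NRAS SCR. The silenced samples were all higher, and the SCR samples were almost equal. The log2 fold change was 0.44 ± 0.10 (adjusted p = 0.0086). Without AKT Cre/NRAS siRNA replicate 3 it was 0.39 (adjusted p = 0.054), the one omission of 6 that ended the call, and the adjusted p over all alternatives ran from 0.00171 to 0.607. In AKT/NRAS siRNA *Cdc25a* read 333, 318 and 368, against 254, 321 and 327 in AKT/NRAS SCR, groups that overlapped (log2 0.18 ± 0.11, adjusted p = 0.315, 95% interval -0.07 to 0.43). The interaction was 0.26 ± 0.14 (adjusted p = 0.154), so a difference between the lines in this response was not shown in the main fit. This interaction was called with 10 reference genes (0.479, adjusted p = 0.0259) and with 5 (0.741, 0.028). It was also called without AKT/NRAS SCR replicate 1 (0.375, 0.0314), and it was positive under 4 of 7 scalings. Relative to the median of all genes the *Cdc25a* fold change was 0.21 in both lines. The means were highest in AKT Cre/NRAS siRNA (382), then AKT/NRAS siRNA (339), AKT/NRAS SCR (301) and AKT Cre/NRAS SCR (281), and the lines were not called apart under siRNA (log2 0.17 ± 0.08, adjusted p = 0.0939) or under SCR (log2 -0.09 ± 0.12, adjusted p = 0.51). The siRNA difference was called with all 20 reference genes (adjusted p = 0.0169), with 5 (0.0317), and without AKT Cre/NRAS siRNA replicate 2 (0.0481) or AKT/NRAS siRNA replicate 3 (0.0445). The SCR difference was called with 10 reference genes (-0.366, adjusted p = 0.048), and its sign turned under 4 of 8 scalings.

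*E2f1* (chr2:154559400-154569892), an activator of genes for S phase, read 146, 135 and 147 in AKT Cre/NRAS siRNA, against 130, 109 and 89.2 in AKT Cre/NRAS SCR. The groups did not overlap, yet the SCR samples spread over a wider range than the distance between the nearest samples of the 2 groups. The log2 fold change of 0.39 ± 0.15 narrowly missed the threshold (adjusted p = 0.05005) and was called with the replicate block (adjusted p = 0.0233). It was also called without AKT Cre/NRAS SCR replicate 1 (adjusted p = 0.00855), and the adjusted p over all alternatives ran from 0.00855 to 0.818. In AKT/NRAS siRNA it read 143, 124 and 107, against 108, 116 and 97.5 in AKT/NRAS SCR, and these groups overlapped (log2 0.21 ± 0.12, adjusted p = 0.282). The interaction was 0.18 ± 0.20 (adjusted p = 0.473). Between the lines *E2f1* gave log2 differences of 0.20 ± 0.11 under siRNA (adjusted p = 0.147) and 0.02 ± 0.15 under SCR (adjusted p = 0.92). The siRNA difference was called with all 20 reference genes (0.30, adjusted p = 0.034) and without AKT/NRAS siRNA replicate 1 (adjusted p = 0.0311). The SCR difference was called when re-centred on the median (0.372, adjusted p = 0.0216) and was positive under 5 of 8 scalings. In the order of means, AKT Cre/NRAS siRNA (143), AKT/NRAS siRNA (125), AKT Cre/NRAS SCR (109) and AKT/NRAS SCR (107), no neighbours that were compared differed beyond their spread.

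In the comparison of the lines under SCR, AKT Cre/NRAS had *Ccne2*, *Ccna2* and *Cdk2* higher and *Ccne1* lower. Here and under *Dusp4* siRNA *Ccne1* lay on the floor in every AKT Cre/NRAS sample, so it could only come out lower. Its calls and its part in the medians over the members are a description. Of the 6 members fitted 3 were called higher and 1 lower, that one being *Ccne1*, where 28.9% of 515 genes were called higher and 48.0% lower, and the median log2 difference was 0.29 over the members and -0.22 over all genes. Under *Dusp4* siRNA *Ccna2* and *Cdk2* were higher and *Ccne1* and *Ccne2* lower, 2 in each direction of 6 fitted, where 36.6% of 522 genes were called higher and 37.9% lower. The medians were 0.19 over the members and 0.00 over all genes. The *Akt1* reading was 531 to 587 in AKT Cre/NRAS siRNA and 337 to 432 in AKT Cre/NRAS SCR, against 18169.9 to 18566 in AKT/NRAS siRNA and 19259 to 20228 in AKT/NRAS SCR. In the interaction of line and siRNA, 1 of the 6 members (*Ccna2*) was called more positive in AKT Cre/NRAS and 1 (*Ccne2*) more negative, where 40.6% and 4.76% of 525 genes were.

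How far these results hold depends on how the samples are scaled to each other, since the median log2 fold change of all genes after silencing in AKT Cre/NRAS lay between -0.10 and 0.67 over 8 scalings. *Ccne2* was called lower in AKT Cre/NRAS under all 8, with log2 fold changes between -1.37 and -0.57. *Cdc25a* was higher under all 8 (0.08 to 0.89) and called under 4, and *E2f1* was higher under all 8 (0.04 to 0.84) and called under 2. *Ccna2* in AKT Cre/NRAS was lower under 7 of the 8 (-0.60 to 0.21) and called lower under 4. *Ccna2* in AKT/NRAS was lower under all 8 (-0.56 to -0.18) and called under 7, the exception being the values as deposited, where *Cdk2*, *E2f1* and *Cdc25a* were called higher instead. A factor applied to a whole sample shifts nearly all genes alike, and setting a gene against the median of all genes removes that shift. Relative to that median the same fold changes thus moved little, which is no separate check of them. In AKT Cre/NRAS they ran from -1.39 to -1.24 for *Ccne2*, -0.52 to -0.46 for *Ccna2*, -0.15 to -0.11 for *Cdk2*, 0.14 to 0.20 for *E2f1* and 0.15 to 0.22 for *Cdc25a*. In AKT/NRAS they ran from -0.06 to -0.01 for *Ccne2*, -0.49 to -0.47 for *Ccna2*, 0.06 to 0.14 for *Cdk2*, 0.20 to 0.24 for *E2f1* and 0.21 to 0.22 for *Cdc25a*.

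**Figure D5:**
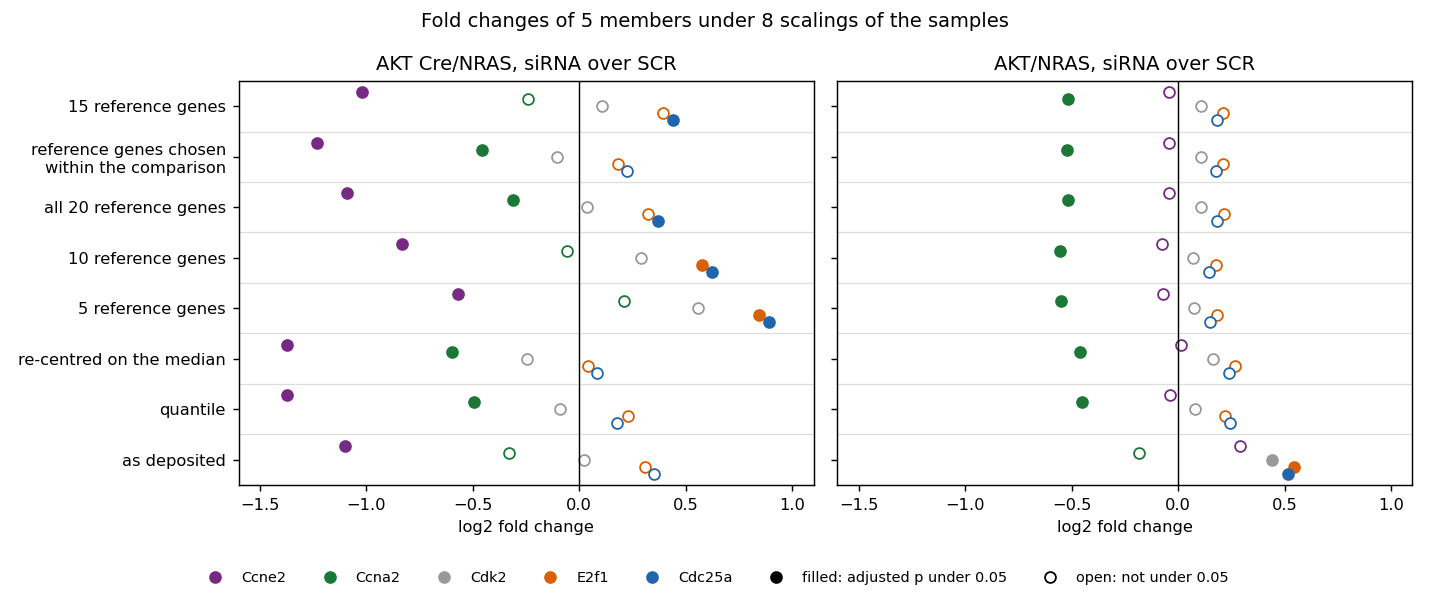
Log2 fold changes after silencing (horizontal axes) of 5 members under 8 scalings of the samples (rows), in AKT Cre/NRAS and in AKT/NRAS (n = 3 per group). Filled points passed the limma threshold and open points did not. The 5 points shift together from row to row, and *Ccne2* in AKT Cre/NRAS is the one member filled in every row.

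Around these genes stand the D-type cyclins and their kinases, which act before cyclin E by phosphorylating RB. After silencing in AKT Cre/NRAS 4 of the 5 were called higher and 0 lower, against 40.6% and 5.37% of all genes. These were *Ccnd2* (log2 0.56 ± 0.09), *Cdk6* (0.57 ± 0.09), *Ccnd3* (0.71 ± 0.17) and *Ccnd1* (0.37 ± 0.11). The count of higher calls was 0 with the values as deposited, and the 4 named genes had positive fold changes under all 8 scalings. In AKT/NRAS, where 5.44% of all genes were called higher and 11.9% lower, 1 of 5 was called higher, *Ccnd2* (0.17 ± 0.04, adjusted p = 0.0176). Of the CDK inhibitors, *Cdkn1a*, the p21 gene, was higher after silencing in AKT Cre/NRAS (0.41 ± 0.15, adjusted p = 0.0425) and lower in AKT/NRAS (-0.36 ± 0.04, adjusted p = 0.00161), with an interaction of 0.77 ± 0.19 (adjusted p = 0.00809). It was the 1 inhibitor called of 6 fitted in AKT Cre/NRAS, under 3 of 8 scalings. In AKT/NRAS 3 of 7 were called, the others being *Cdkn2c* (0.31 ± 0.06, higher) and *Cdkn1b* (-0.14 ± 0.04, lower except with the values as deposited). Of the RB and other E2F genes 3 of 9 were on the panel. *Rb1* was called higher in AKT Cre/NRAS (0.31 ± 0.11, adjusted p = 0.0371, under 3 of 8 scalings, with its sign turned under 1), and *Tfdp1*, the partner of E2F proteins, in AKT/NRAS (0.24 ± 0.05, adjusted p = 0.0143).

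After silencing in AKT Cre/NRAS 1 of the 12 replication genes fitted was called higher and 5 lower, against 40.6% and 5.37% of all genes, with a list median of -0.22 against 0.23 over all genes. The named ones were the histone gene *Hist1h3b* (-0.54 ± 0.15, adjusted p = 0.0198), the helicase subunit *Mcm4* (0.36 ± 0.11, 0.0245), *Rpa3* of the single-strand binding complex (-0.66 ± 0.21, 0.0298) and the clamp loader *Rfc4* (-0.49 ± 0.16, 0.0306). Calls in this list ranged from 0 to 8 lower over the 8 scalings. *Hist1h3b*, *Mcm4* and *Rfc4* were each called under 3 of the 8 and *Rpa3* under 2, and none of these 4 genes changed sign. Relative to the median of all genes *Mcm4* was higher by only 0.04 to 0.14. In AKT/NRAS 4 of 12 were called higher and 0 lower, against 5.44% and 11.9% of all genes. These were *Mcm7* (0.27 ± 0.04), *Mcm4* (0.27 ± 0.06), *Rpa3* (0.11 ± 0.02) and *Rfc3* (0.32 ± 0.09), and the medians were 0.10 in the list and -0.03 over all genes. The interaction called 5 of 13 more negative in AKT Cre/NRAS and 0 more positive, against 4.76% and 40.6% of all genes, with *Rfc3* at the smallest adjusted p (-0.83 ± 0.22, 0.0121). The count of more negative calls ran from 0 to 10 over 7 scalings. Of the SCF ubiquitin ligase genes, whose FBXW7 form marks cyclin E for destruction, *Skp1a* was lower in AKT Cre/NRAS (-0.54 ± 0.16, adjusted p = 0.0204, called under 3 of 8 scalings), and *Rbx1* (0.25 ± 0.05) and *Skp2* (0.38 ± 0.08) were higher in AKT/NRAS, of 5 fitted in each. *Fbxw7* itself was not called in either line (0.32 ± 0.16 in AKT Cre/NRAS and 0.20 ± 0.06 in AKT/NRAS). Of 7 G2 and mitosis genes fitted, *Cdc25b*, a relative of *Cdc25a*, was called higher in AKT Cre/NRAS (0.42 ± 0.14, adjusted p = 0.0295) and the spindle checkpoint kinase *Ttk* in AKT/NRAS (0.26 ± 0.07, adjusted p = 0.048), each under 3 of 8 scalings.

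Between the lines under SCR, 8 of the 12 replication genes fitted were called higher in AKT Cre/NRAS and 2 lower, against 28.9% and 48.0% of all genes, with a list median of 0.53 against -0.22 over all genes. Over 8 scalings 4 to 10 were called higher. *Hist1h3b* (1.51 ± 0.13), *Pold4* (0.73 ± 0.07) and *Mcm7* (0.55 ± 0.07) were higher and *Rpa3* lower (-1.68 ± 0.23). Of the CDK inhibitors 5 of 7 were called lower and 2 higher, against the same shares, and over 8 scalings 2 to 5 were called lower. *Cdkn2a*, which encodes p16 and p19ARF, stood at the floor in AKT Cre/NRAS SCR and AKT Cre/NRAS siRNA. Its log2 differences, -6.00 ± 0.09 under siRNA and -6.02 ± 0.09 under SCR, are thus bounds. The study describes this gene as strongly upregulated in AKT Cre/NRAS, the opposite direction, and the reason was not tested. *Cdkn1b*, the p27 gene, was higher in AKT Cre/NRAS under both treatments (0.60 ± 0.03 under siRNA and 0.70 ± 0.09 under SCR). *Ccnd2* was lower in AKT Cre/NRAS, with log2 differences of -1.74 ± 0.03 under siRNA and -2.13 ± 0.09 under SCR. Of 13 replication genes fitted under siRNA, 7 were called higher and 2 lower, against 36.6% and 37.9% of all genes. Of 7 G2 and mitosis genes 4 were called higher there, with *Cdc25c* at 1.19 ± 0.09 under siRNA and 1.12 ± 0.11 under SCR.

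The genes whose profile over the 12 samples came closest to each member were found by the root mean square difference of log2 values centred on each gene's mean, over the 446 genes above the floor in all samples. For *Ccne2* these were *Rpl19* (0.19), *Them4* (0.21) and *Hprt* (0.26), where the median gene stood at 0.63. For *Ccna2* they were *Eif4ebp1* (0.14), *Cdkn1b* (0.18) and *Vegfa* (0.19), for *Cdk2* *Zak* (0.09), *Mcm7* (0.10) and *Bax* (0.11), for *E2f1* *Acvr1b* (0.12), *Ppp2cb* (0.15) and *Itga6* (0.15), and for *Cdc25a* *Met* (0.13), *Fancf* (0.14) and *Smo* (0.15). *Rpl19* and *Hprt* are reference genes used in the scaling. The points of these profiles share their libraries and the 4 groups, and the distances are a description.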

How the data were processed

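RNA from 12 cell line samples was hybridised to the panel, and the authors ran nSolver on the barcode counts. What they deposited is a signal for each gene: a count multiplied by a single factor for the sample (0.827 to 1.27, tracking the positive controls), with anything up to 20 written as 20. Counts below that floor are not known, which is why a model for counts was not used. The study's methods also scale to reference genes picked automatically. The deposited signal does not carry that step, so geNorm was run on all 12 samples together, and 15 of 20 reference genes (the final 20 genes of the table) were kept. The scaled signal was raised to the common floor of 27.1, 1 was added and log2 was taken. A comparison used its own samples, the interaction used all 12, and genes above the floor in at least 1 sample were tested with limma (version 3.58.1, R 4.3.3, lmFit and eBayes, trend on mean level). Adjusted p values come from limma, by Benjamini-Hochberg over every gene tested, with a threshold of 0.05.

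The scaling, the members, the gene lists and the tests were chosen with earlier results of these data known. All 7 members are named in each comparison, and of each list at most 4 genes, those with the smallest adjusted p. Deviations from the group means correlated between AKT Cre/NRAS siRNA and SCR samples of the same number (r = 0.22, 0.12 and 0.23 over 446 genes, each sample closest to its own number), so these numbers were taken to pair samples, and blocked values stand beside the results they change. The pairing was read from the data, where these r are small, and is not stated in the labels. Deviations from a mean of 3 samples depend on each other, so the 3 matches are not independent. In no other comparison was every r above 0.1, though between the lines under siRNA r was 0.21 for replicate 1 and 0.16 for replicate 3. Some marker genes of the panel are not reported here. The fit was tested on simulated data. Promoter windows are those of RefSeq. Other scalings, filters, pseudocounts and adjustments, a joint fit, the block and the omission of each sample were run as alternatives. Scaling without *Rpl19* and the ratios within a sample were added after seeing the data.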

Additional observations from a re-analysis of the deposited data

Results flagged for a closer look

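The response of *Ccne2* to *Dusp4* siRNA differed between the lines by the test of the difference itself, with an interaction of -0.97 on the log2 scale (adjusted p = 0.0155). The silencing was unequal too, with a *Dusp4* interaction of 1.28 ± 0.15 (adjusted p = 0.000728, called under 6 of 7 scalings). What part the unequal silencing has in the interactions of the members was not tested. The *Ccne2* interaction kept sign and call under the 7 scalings run for it and with each of the 12 samples left out in turn. The call was lost with Benjamini-Yekutieli adjustment (0.106). *Ccna2* was singled out by the same test, with an interaction of 0.28 (adjusted p = 0.033). Its sign turned under 3 of 7 scalings, and relative to the median of all genes it was 0.03. The call was lost without AKT Cre/NRAS siRNA replicate 1 or 2, AKT/NRAS siRNA replicate 2 or 3, or AKT/NRAS SCR replicate 2 or 3 (adjusted p 0.0741, 0.0693, 0.0735, 0.0701, 0.0767 and 0.0646).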

How the results depend on the processing

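Of the values for the counts of members called, 126 stayed within 1.5 times and 20 moved. Only numbers were compared, so a swap of members does not show. Such a swap came after silencing in AKT Cre/NRAS when re-centred, with quantile normalization and with reference genes chosen within the comparison. There *Cdc25a* was lost (adjusted p 0.544, 0.146 and 0.187) and *Ccna2* was called lower (0.00225, 0.0302 and 0.0115). In AKT Cre/NRAS siRNA against SCR (2 called), 1 member was called with the values as deposited, with no filter and with Benjamini-Yekutieli adjustment, 4 with 1 fit over all 12 samples and 4 with the replicate block, and 1 to 3 with a sample left out. In AKT/NRAS (1 called) 3 were called with the values as deposited. Between the lines under SCR (4 called), 2 were called with 10 reference genes, 1 with 5 and 1 with reference genes chosen within the comparison. In the interaction (2 called), 1 was called with the values as deposited, with quantile normalization and with all 20 reference genes, 0 with Benjamini-Yekutieli, and 1 to 3 with a sample left out. Outside AKT Cre/NRAS the numbers were not taken to pair the samples, and the block changed 1 call of a member, *Cdc25a* between the lines under siRNA (adjusted p = 0.0343).

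Signs turned as follows, on the log2 scale. After silencing in AKT Cre/NRAS, *Cdk2* was -0.246 re-centred on the median, -0.0928 with quantile normalization and -0.106 with reference genes chosen within the comparison, and with 5 reference genes *Ccna2* was 0.21 and *Dusp4* 0.000978. In AKT/NRAS, *Ccne1* was 0.314 as deposited, 0.0438 re-centred and -0.0901 to 0.107 with a sample left out, and *Ccne2* 0.288, 0.0146 and -0.197 to 0.0496. Between the lines under SCR, *Cdc25a* was 0.417 as deposited, 0.269 re-centred, 0.181 with quantile normalization and 0.0839 with all 20 reference genes, and *E2f1* -0.259 with 10 reference genes, -0.399 with 5, -0.499 chosen within the comparison and -0.114 to 0.155 with a sample left out. In the interaction as deposited, *Ccne1* was -0.314, *Ccna2* -0.145, *Cdk2* -0.418, *E2f1* -0.236 and *Cdc25a* -0.163. Re-centred, they were -0.0438, -0.136, -0.41, -0.227 and -0.154, and *Cdk2* was called there (adjusted p = 0.0296). With quantile normalization *Ccna2* was -0.045, *Cdk2* -0.169 and *Cdc25a* -0.0648. *Cdk2* was -0.0698 with all 20 reference genes, -0.0407 without *Rpl19* and -0.0408 to 0.0755 with a sample left out, and *Ccne1* -0.107 to 0.0901. The causes were not tested.

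Over the panel, 204 genes were called higher and 27 lower in AKT Cre/NRAS, against a total of 1 as deposited (0 and 1), 90 with quantile normalization (52 and 38), 100 within the comparison, 56 with no filter, 70 with Benjamini-Yekutieli and 99 to 297 with a sample left out. Re-centred, 32 were higher and 136 lower, with 10 reference genes 252 and 4, and with 5 reference genes 254 and 1. In AKT/NRAS 27 were higher and 59 lower, against a total of 290 as deposited (287 and 3), 45 with no filter, 23 with 1 fit over all samples, 10 with Benjamini-Yekutieli and 39 to 92 with a sample left out, with splits of 47 and 41 re-centred, 46 and 39 with quantile normalization, 18 and 87 with 10 reference genes and 22 and 88 with 5. Between the lines under SCR the split of 149 and 247 became 202 and 99 as deposited, 224 and 181 re-centred, 97 and 281 with 10 reference genes, 69 and 256 with 5 and 59 and 259 within the comparison. The interaction called 213 and 25, against a total of 32 as deposited (2 and 30) and 101 with Benjamini-Yekutieli, with splits of 50 and 151 re-centred, 98 and 92 with quantile normalization and 305 and 1 with 5 reference genes. Low counts limit *Ccne1* (35 to 51) and *Ccne2* in AKT Cre/NRAS (43 to 130).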
